A study of Mus musculus with 2 samples.

Results

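Immunoglobulin heavy chain variable genes (Ighv) were taken as every gene row whose symbol starts with Ighv in either of 2 single-cell read count tables of mouse spleen, which gave 116 genes of 15 families among 30457 genes in all. TAS-Seq listed 109 of these genes, BD WTA listed 67, and 60 were shared. Of all 30457 genes, TAS-Seq listed 29292, BD WTA listed 25459, and 24294 were shared. The spleens came from female C57BL/6J mice that received Lewis lung carcinoma cells under the skin at 10 weeks of age and 200 μg of an anti-CD4 antibody on day 5 and again on day 9, and were collected on day 12. The pool was made from 3 spleens and stored frozen, and 2000 thawed cells were loaded on 1 BD Rhapsody cartridge, in which each cell settles in a nanowell with a barcoded bead that captures poly(A) RNA. The beads were then divided between both methods that were compared: TAS-Seq, in which the first-strand cDNA is tailed by terminal transferase with a chain terminator in the mix, and the BD WTA kit, the whole transcriptome workflow of the maker. Both libraries therefore share the tumour model, the antibody and the cell pool, each method has 1 library, and no difference between them has a replicate check. Intervals below are exact 95% intervals that cover counting error only, and reads were counted without molecular identifiers, so they are not independent molecules.

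A B cell joins 1 variable, 1 diversity and 1 joining segment of the heavy chain locus in its precursor stage, and the joined exon is spliced to a constant region such as Ighm (IgM) or Ighd (IgD). Because the second allele is normally kept silent, a mature B cell usually carries messenger RNA of a single Ighv gene, and a pool of naive B cells carries many different ones. Families are numbered by sequence similarity, and Ighv1 is the large J558 family of the mouse. Plasma cells, which secrete antibody with the joining chain Jchain, hold far more immunoglobulin messenger RNA than resting B cells. T cells and NK cells do not make antibody.

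All 116 genes matched the GENCODE mouse annotation (release 21, build GRCm38), where they lie on the minus strand of chromosome 12 between 113578504 and 116010093. The annotation types 99 of them as functional variable genes and 17 as pseudogenes. Their longest transcripts, a leader exon and a V exon, were 303 to 480 bases long with a median of 353, so reads of different Ighv genes were compared without a length correction. Over the last 290 bases of the V exon, the closest annotated relative of a member was between 72.8% and 100% identical, with a median of 95.5%. For 96 of 116 genes it was at least 90% identical, and for 24 it was at least 97% identical. Ighv1-62-2 and Ighv1-71 could not be told apart over this stretch. Only 12 genes shared no run of 50 bases with another Ighv gene, so reads could be split between relatives by the authors' alignment.

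The sequences below are the genes on which the results for single cells turned. Each is the last 180 bases of the V exon in the reference transcript (GENCODE release 21), 5′ to 3′ on the coding strand, and not a sequence read from these cells. Capitals mark the bases that differ within a set. The first set holds the leading gene of a pair of Jchain-rich BD WTA cells, Ighv11-2 (chr12:114048241-114048420), and its relative Ighv11-1 (chr12:113981879-113982058).
Ighv11-2: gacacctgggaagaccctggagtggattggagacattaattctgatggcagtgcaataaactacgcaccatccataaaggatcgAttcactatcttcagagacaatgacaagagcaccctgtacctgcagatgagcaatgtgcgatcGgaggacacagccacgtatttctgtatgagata
Ighv11-1: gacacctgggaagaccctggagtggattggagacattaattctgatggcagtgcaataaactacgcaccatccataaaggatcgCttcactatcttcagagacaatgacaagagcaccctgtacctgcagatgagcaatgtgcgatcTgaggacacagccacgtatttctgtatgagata
The next set is the leading gene of the BD WTA cell with the most Ighv reads, Ighv9-3 (chr12:114140692-114140871), with Ighv9-1 (chr12:114093928-114094107) and Ighv9-2 (chr12:114109001-114109180), which held all other Ighv reads of that cell. For Ighv9-3 the capitals mark every base at which either relative differs from it.
Ighv9-3: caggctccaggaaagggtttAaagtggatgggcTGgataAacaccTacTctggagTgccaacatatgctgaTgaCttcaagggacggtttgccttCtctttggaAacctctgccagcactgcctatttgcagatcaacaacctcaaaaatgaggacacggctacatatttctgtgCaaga
Ighv9-1: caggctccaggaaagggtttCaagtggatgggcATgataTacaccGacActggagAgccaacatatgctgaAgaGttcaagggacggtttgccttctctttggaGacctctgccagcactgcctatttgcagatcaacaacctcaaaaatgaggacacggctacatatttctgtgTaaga
Ighv9-2: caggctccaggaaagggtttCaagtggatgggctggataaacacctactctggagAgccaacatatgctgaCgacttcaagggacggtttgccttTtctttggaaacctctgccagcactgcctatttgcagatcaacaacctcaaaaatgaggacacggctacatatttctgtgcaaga
Ighv1-36 (chr12:114879888-114880067) and Ighv1-19 (chr12:114708648-114708827) were the leading and the second gene of another such cell.
Ighv1-36: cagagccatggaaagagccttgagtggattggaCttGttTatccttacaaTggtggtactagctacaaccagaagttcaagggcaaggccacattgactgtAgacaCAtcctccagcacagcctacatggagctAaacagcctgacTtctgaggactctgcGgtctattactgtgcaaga
Ighv1-19: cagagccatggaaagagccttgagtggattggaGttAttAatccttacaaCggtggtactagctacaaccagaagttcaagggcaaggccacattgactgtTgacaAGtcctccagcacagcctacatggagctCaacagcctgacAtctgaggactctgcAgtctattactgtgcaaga
Ighv1-80 (chr12:115912344-115912523) and Ighv1-82 (chr12:115952538-115952717) were the leading and the second gene of the TAS-Seq cell with the most Ighv reads.
Ighv1-80: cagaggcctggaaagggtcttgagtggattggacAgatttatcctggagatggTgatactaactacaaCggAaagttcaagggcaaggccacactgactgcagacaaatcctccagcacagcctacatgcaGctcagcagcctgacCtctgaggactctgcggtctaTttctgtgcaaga
Ighv1-82: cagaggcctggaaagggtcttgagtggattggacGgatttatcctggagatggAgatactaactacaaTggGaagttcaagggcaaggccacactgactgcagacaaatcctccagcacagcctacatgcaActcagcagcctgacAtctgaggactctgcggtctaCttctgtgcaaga
Ighv3-6 (chr12:114288152-114288331) led the most cells of all members and is shown alone, without capitals.
Ighv3-6: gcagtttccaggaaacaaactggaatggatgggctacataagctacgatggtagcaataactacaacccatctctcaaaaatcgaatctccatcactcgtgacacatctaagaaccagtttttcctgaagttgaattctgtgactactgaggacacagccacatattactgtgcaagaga
Within these 180 bases Ighv11-1 differed from Ighv11-2 at 2 positions, Ighv9-1 from Ighv9-3 at 11, Ighv9-2 from Ighv9-3 at 4, Ighv1-19 from Ighv1-36 at 10 and Ighv1-82 from Ighv1-80 at 7.

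There were 38656790 reads in 736 barcodes for TAS-Seq and 31608259 reads in 716 barcodes for BD WTA, and no barcode was in both. After removal of barcodes with fewer than 500 genes or more than 25% mitochondrial reads, 732 and 708 cells remained, with medians of 46557 and 38426 reads. Clusters found without any variable gene were named from marker lists, and 361 TAS-Seq and 336 BD WTA cells were B-like, while 245 and 289 were T-like. In all 4 B-like clusters the B cell markers Cd79a, Cd79b, Ms4a1, Cd22 and Ighd were raised. Unnamed clusters of 70 TAS-Seq and 57 BD WTA cells raised Cr2, Cd9, Dtx1 and Mzb1, known from marginal zone B cells, but were led by genes such as Marcks and Tyrobp, so they are given apart.

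Ighv reads were found in B-like cells of both libraries and were nearly absent from T-like cells. The B-like cells held 2447 Ighv reads in the TAS-Seq library and 2093 in the BD WTA library. Scaled to counts per 1000000 reads of the class (CPM), the sums were 149.8 (interval 144.0 to 155.9) and 145.9 (139.7 to 152.3), with a log2 ratio (TAS-Seq over BD WTA, as throughout) of 0.04. T-like cells held 24 Ighv reads in the TAS-Seq library, 1.72 CPM, and none in the BD WTA library. At least 1 Ighv read was seen in 218 of 361 TAS-Seq B-like cells (60.4%, interval 55.1 to 65.5) and in 70 of 336 BD WTA ones (20.8%, interval 16.6 to 25.6). In T-like cells, which give the background, it was seen in 19 of 245 TAS-Seq cells (7.76%, 4.73 to 11.8; median 52534 reads per cell against 40812 in B-like cells) and in 0 of 289 BD WTA cells, which allows a share of up to 1.04% by a limit of 3 counts, with an exact upper bound of 1.27%. Of the 19 T-like cells, 15 held a single Ighv read and none held more than 3.

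The similar sums were spread over the cells in different ways. The 5 B-like cells with the most Ighv reads held 13.7% of all TAS-Seq Ighv reads of the class and 51.6% of the BD WTA ones. With these 5 cells left out of each library the log2 ratio of the sums was 0.83, and with each cell weighted equally it was 0.78. With every cell thinned to 20000 reads, an Ighv read remained in 187 of 349 TAS-Seq B-like cells (53.6%) and in 65 of 304 BD WTA B-like cells (21.4%), so the gap in the share of cells was 32.2 percentage points against 39.6 without thinning. A value above 0 for 1 gene in 1 cell had a median of 1 read in the TAS-Seq library, where 51.6% of 608 such values were a single read. In the BD WTA library the median was 5 reads, and 23.6% of 127 such values were a single read.

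**Figure D1:**
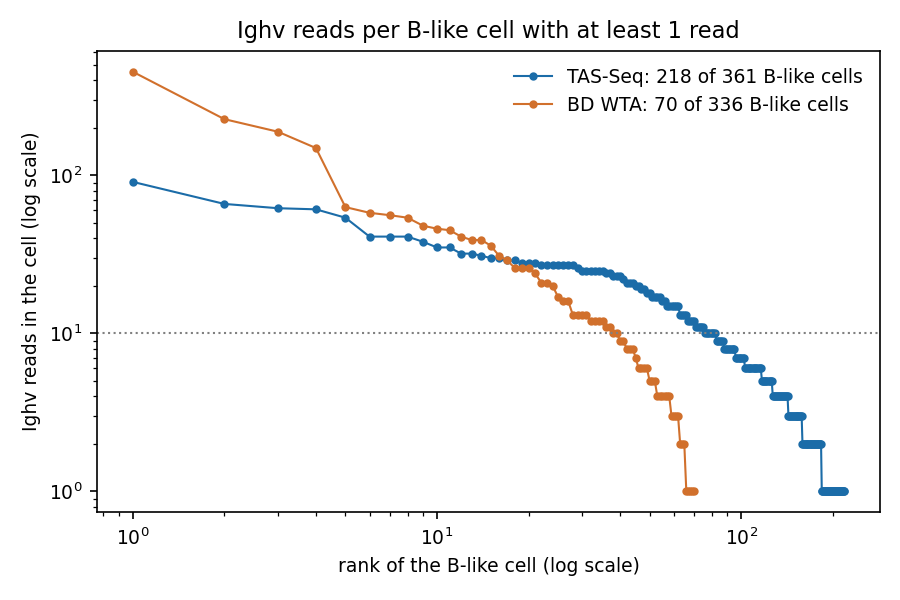
Ighv reads in each B-like cell with at least 1 such read, ranked from the highest, on log axes; blue is the TAS-Seq library, orange the BD WTA library, and the dotted line marks 10 reads. The 4 highest BD WTA cells hold 149 to 453 reads and lie above the highest TAS-Seq cell at 91, while the TAS-Seq curve runs on to 218 cells and the BD WTA curve to 70.

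Most genes of the tables showed the same direction. Among 37 members with at least 3 reads in B-like cells of each library, 34 (91.9%) were seen in a larger share of TAS-Seq than of BD WTA B-like cells, and over all 17132 genes that met the same minimum it was 90.8%. These members were seen in a median of 6 TAS-Seq cells and 2 BD WTA cells, and all genes in 34 and 14. The median reads per cell with a read were 5.33 and 6.75 for the members and 7.25 and 13.3 for all genes.

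The share was also taken in each B-like cluster. In the TAS-Seq library, the larger of the B-like clusters had an Ighv read in 69.1% of 207 cells, and the smaller had one in 48.7% of 154 cells. The follicular B cell markers Fcer2a and Cd55 were raised in both. The corresponding BD WTA values were 24.4% of 176 cells in the cluster with Fcer2a and Cd55 raised and 16.9% of 160 cells in the cluster where Fcer2a but not Cd55 was raised. In each library the cluster with the larger share was also the deeper one, with medians of 44846 against 33675 reads in TAS-Seq and 40325 against 27710.5 reads in BD WTA, so the shares were also taken at a fixed depth. At 20000 reads they were 58.9% (interval 51.9 to 65.7) and 45.8% (37.4 to 54.3) in the TAS-Seq library, and 22.3% (16.4 to 29.2) and 20.2% (13.6 to 28.1) in the BD WTA library. The intervals overlap in both libraries. Overlap alone does not show that the clusters are alike, and a difference between them was not tested. In the unnamed clusters with marginal zone markers, an Ighv read was seen in 42.9% of 70 TAS-Seq cells and in 7.02% of 57 BD WTA cells. These values are at full depth, with medians of 76168.5 and 55818 reads. At 20000 reads the shares were 32.4% of 68 and 5.88% of 51 cells.

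A cell was assigned to its leading Ighv gene where it held at least 10 Ighv reads and 1 gene held at least 50% of them. This was met by 79 of 361 TAS-Seq B-like cells (21.9%, interval 17.7 to 26.5) and by 35 of 336 BD WTA B-like cells (10.4%, 7.36 to 14.2). No T-like cell of either library was assigned. Where a B-like cell had 10 Ighv reads, 1 gene nearly always led. The leading share had a median of 84.8% over 82 TAS-Seq cells, with quartiles of 70.9% and 93.4%, and a median of 100% over 39 BD WTA cells, with quartiles of 82.2% and 100%. In 3 TAS-Seq and 4 BD WTA cells the leading gene held less than 50%. A single Ighv gene held every Ighv read in 11 of the 82 TAS-Seq cells (13.4%) and in 22 of the 39 BD WTA cells (56.4%).

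**Figure D2:**
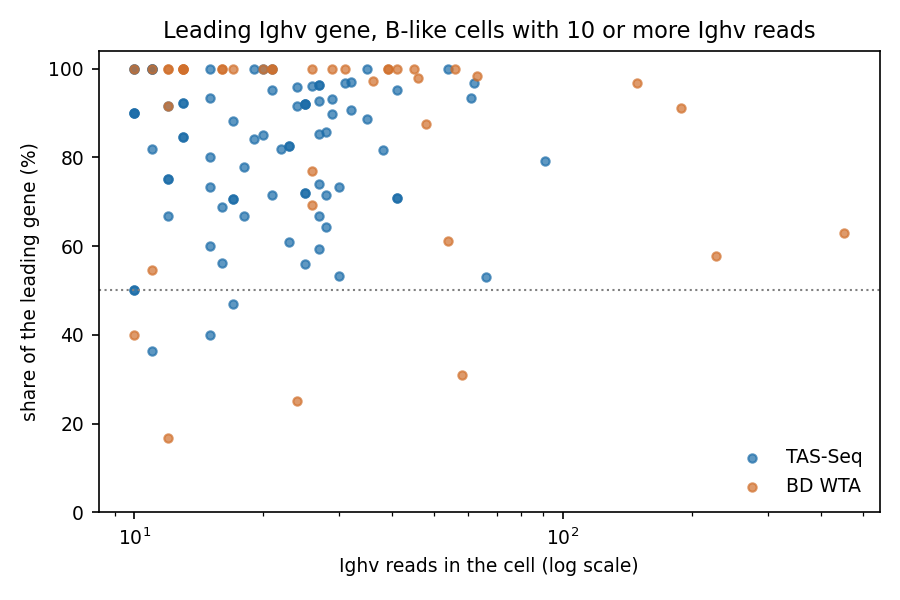
Share of Ighv reads held by the leading gene, in percent, against the Ighv reads of the cell on a log axis; each point is a B-like cell with at least 10 Ighv reads, and the dotted line marks 50%. BD WTA cells (orange) crowd at 100% but reach down to 16.7%. TAS-Seq cells (blue) spread between 36.4% and 100%, and 7 cells of both libraries lie under the line.

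The reads beside the leading gene fell mostly on relatives of that gene. In assigned cells the other genes held 17.3% of the Ighv reads in the TAS-Seq library (331 of 1915) and 18.1% in the BD WTA library (336 of 1854). Of these other reads, 85.8% in the TAS-Seq library and 98.2% in the BD WTA library were of the family of the leading gene, although genes of that family made up on average 31.4% and 24.9% of the other members. Weighted by reads, the median identity of these other genes to the leading gene was 93.4% and 94.8%, and the median over all members was 79.7% and 64.1%. With each other gene of a cell counted once, the median identity to the leading gene was 92.8% and 89.0%. The BD WTA values that count reads rest largely on few Jchain-rich cells described below. Among these, 1 cell held 89 reads of Ighv9-1 and 79 of Ighv9-2, and another held 81 of Ighv1-19. They do not describe the typical BD WTA cell. The share of reads that was placed on a relative by alignment rather than by expression was not tested. Where genes at least 97% identical were counted as 1, the median leading share in the TAS-Seq library was 88.4%.

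A second gene of another family reached 10 reads in 1 assigned cell. This TAS-Seq B-like cell held 35 reads of Ighv3-6 and 24 of Ighv1-2, which is typed as a pseudogene and is 56.9% identical to Ighv3-6. The cell had 40767 reads in all, close to the median of its class, and Scrublet did not call it a doublet.

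The 10 genes that led the most assigned B-like cells, both libraries together, were Ighv3-6, Ighv1-26, Ighv5-4, Ighv1-66, Ighv1-82, Ighv10-1, Ighv8-8, Ighv1-80, Ighv1-64 and Ighv1-81. Ighv3-6 led 7 TAS-Seq and 3 BD WTA cells, with 149 reads in 15 cells and 77 reads in 4 cells, and its highest cell held 35 and 29 reads. It was the leading gene of the most cells in the TAS-Seq library, and in the BD WTA library it was level with Ighv1-66. Ighv1-26 led 4 and 1 cells, with 74 reads in 14 TAS-Seq cells and 27 reads in 4 BD WTA cells. Its closest relative Ighv1-18 is 97.2% identical, so its counts are uncertain. Ighv5-4 led 3 and 2 cells, with 57 reads in 7 cells and 84 reads in 2 cells.

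Ighv1-66 led 1 TAS-Seq and 3 BD WTA cells and was the leading gene of a cell among the 5 highest in both libraries, with 57 of its 68 TAS-Seq reads and 62 of its 110 BD WTA reads in that cell. Ighv1-82 led 3 and 1 cells, with 83 reads in 13 cells and 25 reads in 2 cells. Ighv10-1 led 2 cells in each library, with 39 and 52 reads. Ighv8-8 also led 2 cells in each library, with 60 and 90 reads. The remaining 3 genes led TAS-Seq cells only. Ighv1-80 led 4 TAS-Seq cells with 150 reads in 13 cells, of which 72 were in 1 cell, and had 1 read in BD WTA B-like cells. Ighv1-64 led 4 TAS-Seq cells with 90 reads in 10 cells, and Ighv1-81 led 4 with 95 reads in 7 cells. Both had no read in BD WTA B-like cells.

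Usage was diverse, and few genes recurred. In the TAS-Seq library 46 genes led at least 1 assigned cell, 28 of them a single cell, and no gene led more than 7. In the BD WTA library 24 genes led a cell, 15 of them a single cell, and no gene led more than 3. Of 55 genes that led in either library, 15 led in both, which is 32.6% of the TAS-Seq and 62.5% of the BD WTA leaders. Spearman's rho of the cells led, over the 116 genes, was 0.30, and over the 15 families it was 0.57. These are descriptions across genes, which are not independent replicates, and both libraries came from 1 cell pool.

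Ighv1 was the most used family in both libraries. It led 43 of 79 assigned TAS-Seq cells (54.4%, interval 42.8 to 65.7) and 15 of 35 assigned BD WTA cells (42.9%, 26.3 to 60.6), and the intervals overlap. In the annotation 53 of 113 functional genes (46.9%) belong to this family, which lies within both intervals. Ighv3 led 9 and 3 cells (11.4% and 8.57%), and Ighv5 also led 9 and 3 cells. Ighv8 led 3 TAS-Seq cells (3.80%, 0.790 to 10.7) and 4 BD WTA cells (11.4%, 3.20 to 26.7), and Ighv10 led 4 and 3 cells (5.06% and 8.57%). Ighv2 led 4 TAS-Seq cells and Ighv14 led 3, with no BD WTA cell for either. Ighv11 led 2 BD WTA cells and no TAS-Seq cell. The intervals of both libraries overlapped for each of the 15 families, and a difference in family usage was not tested.

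**Figure D3:**
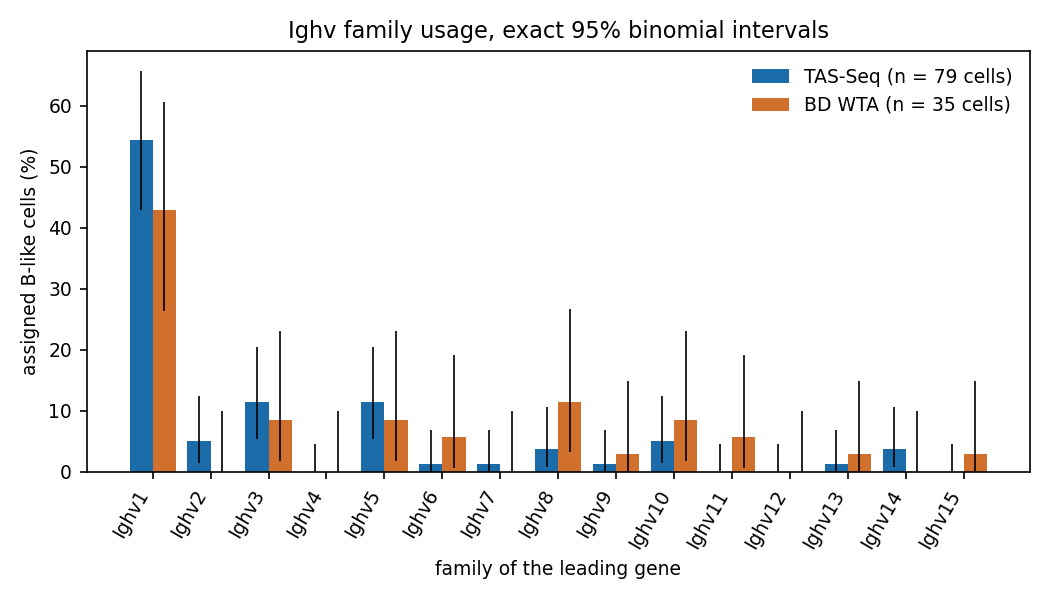
Percent of assigned B-like cells whose leading gene belongs to each Ighv family, for 79 TAS-Seq cells (blue) and 35 BD WTA cells (orange); bars start at 0 and lines are exact 95% binomial intervals. Ighv1 stands highest in both libraries at 54.4% and 42.9%, and the intervals overlap in every family.

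Counted by reads, the families looked different in the BD WTA library. Ighv1 held 59.8% of the TAS-Seq and 37.1% of the BD WTA Ighv reads. Ighv9 held 1.31% and 22.1%, and Ighv11 held 0.0409% and 16.1%. The BD WTA values of both families rest on 3 cells: 453 of the 463 Ighv9 reads were in 1 cell, and 338 Ighv11 reads were in 2.

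Along the locus, usage was compared over 3 stretches with near-equal numbers of functional genes. Of the assigned cells led by a functional gene, the stretch nearest to the constant genes (38 genes, none of them Ighv1) held 24.1% of 79 TAS-Seq cells (interval 15.1 to 35.0) and, in BD WTA, 17.6% of 34 cells (6.76 to 34.5). The middle stretch held 35.4% and 47.1%. The far stretch, in which 30 of 37 genes are Ighv1, held 40.5% and 35.3%. The intervals of both libraries overlapped in each stretch. The cell left out of the BD WTA count was led by a pseudogene.

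The Ighv reads of the BD WTA library were concentrated in 4 cells that were rich in Jchain. These cells had between 4448 and 7777 Jchain reads, and the next BD WTA cell had 266. In the TAS-Seq library 1 cell had 1658 Jchain reads, and the next had 18. The limit of 1000 Jchain reads used below was chosen after these values were seen. All 5 cells were in B-like clusters, were rich in Ighm (8853 to 16793 reads) and Igkc (71227 to 113337 reads), the constant gene of the kappa light chain, and had reads of the plasma cell genes Xbp1 (193 to 521) and Mzb1 (77 to 1249). The 4 BD WTA cells had at most 1 Ighd read each and the TAS-Seq cell had 105.

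The BD WTA cell with the most Ighv reads held 453, of which 285 were Ighv9-3 (62.9%), 89 Ighv9-1 and 79 Ighv9-2. No other Ighv gene was counted in it, and its leading kappa variable gene was Igkv1-135 with 75.3% of 814 Igkv reads. The next held 227 Ighv reads, with 131 of Ighv1-36 (57.7%) and 81 of Ighv1-19, and its Igkv leader was Igkv1-122 with 72.6% of 1688 reads. In both cells most reads beside the leading gene were of relatives that are at least 93.1% identical to it.

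The other two Jchain-rich BD WTA cells were both led by Ighv11-2, a gene known from B-1 cells, the innate-like B cells that supply much of the natural IgM. One held 172 Ighv11-2 and 17 Ighv11-1 reads and no other Ighv read, with a leading share of 91.0%. The other held 144 Ighv11-2 and 5 Ighv11-1 reads, a share of 96.6%. Both carried the same leading kappa gene, Igkv14-126, with 97.1% of 1507 and 93.1% of 869 Igkv reads. The pairing of Ighv11-2 with Igkv14-126 is known from B-1a cells that bind phosphatidylcholine. Among assigned B-like cells in which an Igkv gene also led by the same rule (13 TAS-Seq and 11 BD WTA cells), this was the only pair of genes seen in more than 1 cell of a library. Both cells had 0 reads of Cd5, Bhlhe41 and Zbtb32, which are markers of B-1 cells, and no B-1 name is given to them here. Many TAS-Seq B-like cells also had no read of these genes, so a value of 0 does not separate B-1 cells from others. The B-1 marker list also held Spn and Itgam, which are not given for these cells.

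Outside these cells Ighv11-2 was nearly absent. All 316 BD WTA reads of the gene were in them, and the TAS-Seq library held 4 reads in 4 cells, of which 1 was B-like. Igkv14-126 had 61 reads in 9 TAS-Seq cells, with at most 25 in a cell. Ighv12-3, another gene known from B-1 cells, had 6 reads in 1 BD WTA cell, beside 42 reads of Ighv6-3, and is not listed in the TAS-Seq table.

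The highest TAS-Seq cell, with 91 Ighv reads, was the Jchain-rich one. It held 72 reads of Ighv1-80 (79.1%) and 7 of Ighv1-82, which is 96.2% identical, and its Igkv leader was Igkv1-117 with 59.1% of 794 reads. The other 4 of the 5 highest TAS-Seq cells had no Jchain read. They were the cell led by Ighv3-6 described above, a cell with 60 of 62 reads on Ighv7-3, a cell with 57 of 61 on Ighv1-66 and a cell with all 54 reads on Ighv3-4. Ighv7-3 and Ighv3-4 were seen in no other B-like cell of either library. In the unnamed TAS-Seq cluster with marginal zone markers, Ighv7-3 led a cell with 31 of 39 Ighv reads. Ighv3-4 held all 10 Ighv reads of another cell there.

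**Figure D4:**
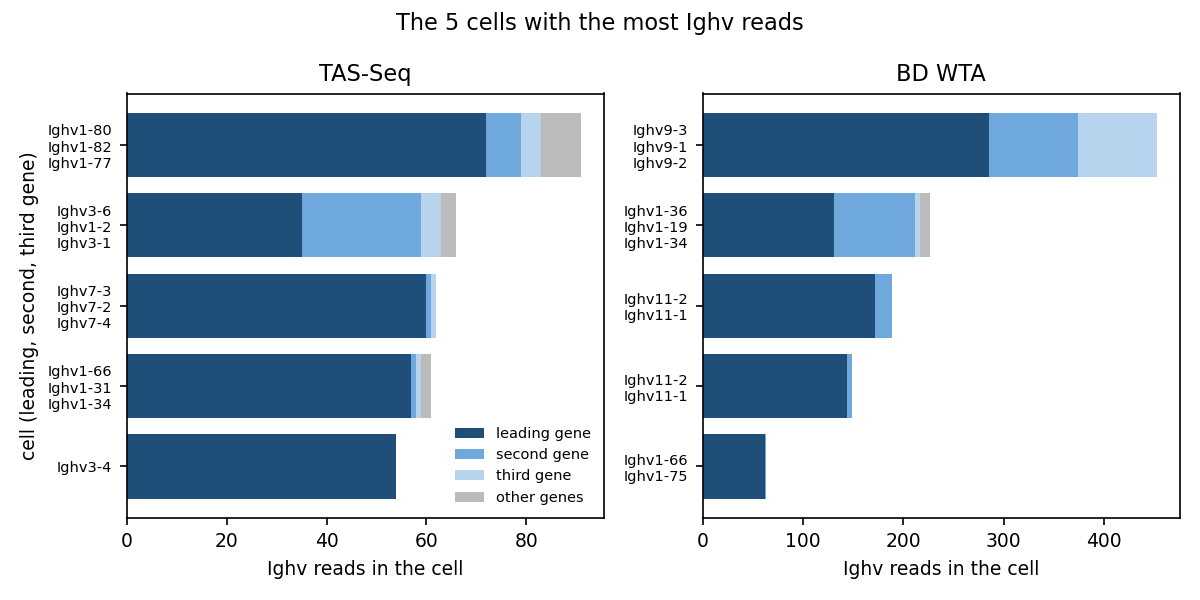
Ighv reads of the 5 cells with the most Ighv reads in each library, split into the leading gene, the second, the third and other genes; each bar is a cell, its genes are named at the left, and the 2 panels have different scales. In BD WTA the 4 highest bars, with 149 to 453 reads, are the Jchain-rich cells, and in the second TAS-Seq cell the second gene is of another family.

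The number of Ighv reads for each constant region read was not the same in all cells. The 4 Jchain-rich BD WTA cells held 19.3 Ighv reads per 1000 Ighm and Ighd reads together, and the remaining BD WTA B-like cells 12.4. In the TAS-Seq library the Jchain-rich cell held 6.78 and the remaining B-like cells 27.1, against 4.92 in T-like cells. These are ratios of reads and are not corrected for length or for the distance of the variable region from the captured poly(A) end. Without the Jchain-rich cells the summed Ighv level of B-like cells was 146.6 CPM for TAS-Seq (interval 140.7 to 152.6) and 79.4 CPM for BD WTA (74.7 to 84.3), which is 1.85-fold higher in TAS-Seq. The number of Jchain-rich cells, 1 against 4, and the method cannot be told apart here, since each method has 1 library.

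**Figure D5:**
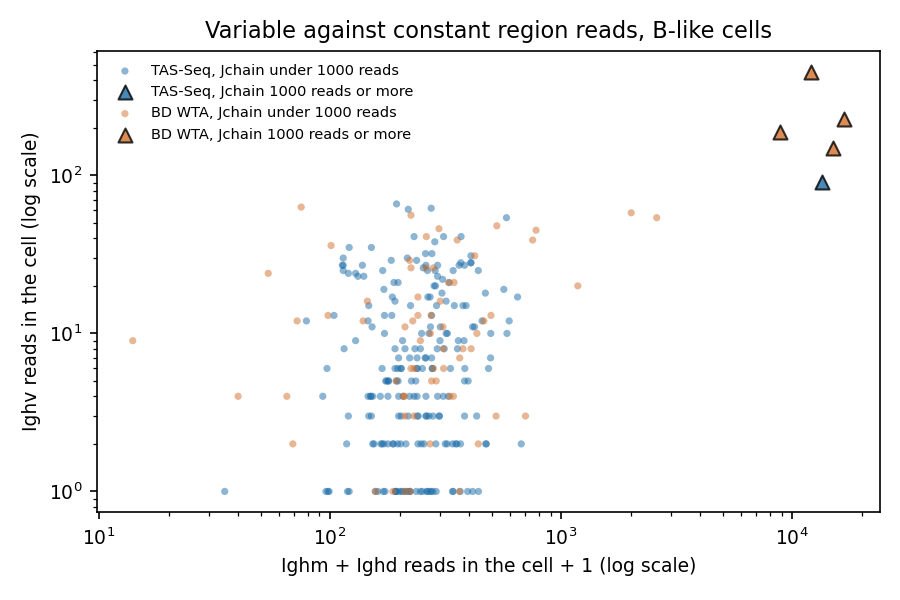
Ighv reads against Ighm plus Ighd reads (plus 1) of each B-like cell with an Ighv read, on log axes; triangles are cells with 1000 or more Jchain reads. The 5 triangles lie at 8853 or more Ighm reads, far to the right of the other cells, and the 4 orange ones are the highest of all in Ighv reads.

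No Ighv gene had 10 CPM and reads in 10 cells of a library in B-like cells, so none entered the comparison of levels between libraries with that minimum, in which 14.2% of 9767 genes were at least 2-fold higher in TAS-Seq and 7.48% at least 2-fold higher in BD WTA. With a minimum of 3 reads in each library, 16 of 37 members (43.2%) were at least 2-fold higher in TAS-Seq, where 18.3% of all 17132 genes were, and 8 of 37 (21.6%) were at least 2-fold higher in BD WTA, where 14.9% were. Their median log2 ratio was 0.72, and that of all genes 0.11. The members furthest to either side were Ighv9-3 at -5.35, with 8 TAS-Seq and 287 BD WTA reads, and Ighv1-74 at 3.98, with 54 and 3 reads. Such ratios rest on few cells: the Ighv9-3 reads were in 4 TAS-Seq and 2 BD WTA cells.

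The list of partner genes held constant, joining and light chain genes, receptor partners, factors, and genes of recombination and secretion, among others. Of its 32 genes, 3 (Ighg1, Ighe and Rag1) were listed in neither table, and 27 had at least 3 reads in B-like cells of each library. At least 2-fold higher in TAS-Seq were 3 of the 27, the joining segments Ighj2 (16.9 against 5.16 CPM, and 15.9 against 1.11 CPM without the Jchain-rich cells) and Ighj3 (11.2 against 3.83 CPM) and the IgA constant gene Igha (10.9 against 1.32 CPM). At least 2-fold higher in BD WTA were 7, among them Jchain (104.6 against 1709 CPM), Igkc (13229 against 35491 CPM) and Xbp1 (65.4 against 168.3 CPM). Over all 17132 genes with the same minimum, 18.3% were at least 2-fold higher in TAS-Seq and 14.9% in BD WTA. The list had a median log2 ratio of 0.04. Without the Jchain-rich cells the log2 ratio of Igkc was -0.36 in place of -1.42, and that of Xbp1 was -0.60 in place of -1.36.

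Ighm, which is spliced to the variable exon of naive cells, was at 4396 and 8024 CPM in B-like cells, against 328.8 and 317.3 CPM in T-like cells. Without the Jchain-rich cells its level in B-like cells was 3638 CPM for TAS-Seq and 4608 CPM for BD WTA, and its log2 ratio was -0.34 in place of -0.87. Ighd, the IgD constant gene, had 1747 and 1693 CPM, a log2 ratio of 0.04. The joining segments, which form the end of the variable exon, were likewise found in relatively more cells by TAS-Seq. Ighj2 had a read in 18.6% of TAS-Seq and 0.893% of BD WTA B-like cells, and Ighj4 in 13.6% and 1.49%. For Ighj3 the shares were 12.5% and 1.49%, and for Ighj1 9.42% and 2.08%. In T-like cells only Ighj3 had a read, in 0.816% of TAS-Seq cells. The receptor partner Cd79a had 3260 and 4697 CPM and Cd79b had 1331 and 751 CPM. The B cell factors Pax5 and Ebf1 had log2 ratios of 0.18 and 0.00. Ighg3, a class-switched constant gene, had reads in 1.11% of TAS-Seq and 2.08% of BD WTA B-like cells, and in 1.22% and 0% of T-like cells. The terminal transferase gene Dntt, active in precursor B cells, had no read in B-like cells of either library. It had reads in 2.04% of TAS-Seq and 1.04% of BD WTA T-like cells. Rag2, another recombination gene, had reads in 27.7% of TAS-Seq and 4.76% of BD WTA B-like cells, at 15.3 and 33.8 CPM. In T-like cells Rag2 reads were seen in 4.08% and 0.346%.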

How the data were processed

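Single-cell RNA-seq of pooled mouse spleen cells was measured in 1 TAS-Seq and 1 BD WTA library. The deposited tables hold whole read counts per gene and barcode, which the authors made without molecular identifiers: reads were trimmed with cutadapt (2.10 per the labels), aligned on the forward strand with Bowtie2 (2.4.2) to Ensembl cDNA and non-coding RNA of build GRCm38, and barcodes above the inflection point were kept. Reads of near-identical Ighv transcripts may be placed on either, and reads that span a V(D)J junction align only in part. Whether background subtraction was applied to these tables is not given in the sources used here. In the kept cells depth was 12343 to 291602 reads in BD WTA and 15378 to 262041 in TAS-Seq.

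Cells with at least 500 genes and at most 25% mitochondrial reads were clustered per library with Seurat 5.3.0 (20 principal components, resolution 1) without Ighv, Igkv and Iglv genes. A cluster was named where exactly 1 class had 3 or more of its markers raised, and 1 of them among its top 10 genes. Scrublet (through scanpy 1.11.5, expected rate 0.05) called 1 doublet in each library, and both were left in. Identities were computed with edlib, intervals with scipy 1.17.1 (Clopper-Pearson and exact Poisson). With 1 library per method no test was run. edgeR 4.0.16 and DESeq2 1.42.0 served only for alternative scaling factors. The assignment and the calls were tested on simulated data. There the reads beside the leading gene were spread evenly over all other Ighv genes, so placement on relatives was not covered.

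Named genes were the 10 that led the most assigned B-like cells, the 3 highest and 3 lowest ratios among members past the level minimum (none passed), the leading genes of the 5 cells with the most Ighv reads per library, Ighv11-2 and Ighv12-3, and a list of 32 partner genes. Other genes named as relatives, second genes or extreme ratios, and the light chain genes, were chosen after their values were seen. The members and lists were chosen with earlier results of these data known. Alternatives covered the read and share minimums, depth, cell class, doublets, merged genes, scaling and single cells. Some genes of these lists are not reported here.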

Additional observations from a re-analysis of the deposited data

How the results depend on the processing

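A value was counted as moved where it left the 95% counting interval of the reported value (for rho, a change of 0.1 or more; for a count, over 1.5 times). Of 84 values under alternatives 65 did not move. Some of these 65 had little or no room to move. They are the assigned share of T-like cells, 0% throughout, and the counts of members past 2-fold where no member met the level minimum. The assigned share of B-like cells (21.9% in TAS-Seq, 10.4% in BD WTA) moved with the minimum of reads and with depth: at 5 reads it was 31.6% in TAS-Seq, at 50 reads 1.39% and 2.08%, thinned to 20000 reads 13.2% and 6.58%, and with a leading share of at least 90% it was 9.70% in TAS-Seq. At 50 reads, with 5 and 8 cells left, the order of the libraries turned, the median leading share was 93.4% in TAS-Seq and 77.0% in BD WTA, Ighv1 led 40.0% of the TAS-Seq cells, and rho of gene usage was 0.14; at family level rho was 0.57. The log2 ratio of summed Ighv CPM was -0.094 with TMM factors, 0.78 with equal cell weights, 0.83 without the 5 highest cells, 0.91 scaled to Ighm reads and, among alternatives chosen after seeing the data, 0.88 without Jchain-rich cells and 0.63 thinned. Members past 2-fold numbered 0, as none met the level minimum, 24 of 37 with 3 reads in each library, and 21 of 33 when the 5 highest cells were also left out, also added after seeing the data. The cause of these moves was not tested beyond the cells or reads each alternative removes. No T-like cell was assigned under any of 7 alternatives. T-like cells named by cluster held at most 3 Ighv reads, and every alternative required at least 5. Only classing cells from their own marker reads could have changed this value. No paired analysis was possible because a single library stands for TAS-Seq and another for BD WTA, which likewise leaves no replicate to omit.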
